A study of Drosophila melanogaster with 16 samples.

Results

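The 10 genes described here encode the odorant receptors Or7a, Or56a, Or82a, Or47a, Or49b, Or98a, Or43b, Or9a, Or67b and Or67a of Drosophila melanogaster, which are known from the small basiconic sensilla ab4 to ab10 of the antenna. They were chosen by name, with earlier results of these data known, and no measured value enters the rule. All probes on the array that carry one of these gene names were taken. This gave 10 of 24318 gene names, 12 of 32162 probes and 22 of 43603 spots that are not controls. Another 49 odorant receptor genes were on the array.

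A basiconic sensillum is a hair on the antennal surface that houses a small number of olfactory sensory neurons. Each neuron usually expresses 1 odorant receptor that binds odours, together with the co-receptor Orco, which carries the receptor to the dendrite and forms the ion channel with it. Neurons of 1 sensillum sit next to each other, share the fluid around their dendrites and can inhibit each other, so that the receptors fall into natural pairs. The small basiconic sensilla together detect fruit esters, green leaf volatiles, aromatic compounds and single danger cues such as geosmin.

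RNA was extracted from antennae and from brains of female flies and measured on 16 one-colour arrays, on which dye-labelled copies of 1 extract are captured by spotted DNA and read as brightness. There were 4 groups of 4 arrays, namely antennae labelled starved, antennae labelled fed, brain labelled starved and brain labelled fed. By the labels the starved flies had 28 h of starvation, the fed flies 0 h, and all were 5 to 7 days old, while the study's methods describe flies without food on moist tissue beside flies with sucrose. Each extract pooled 100 antennae or 50 brains. The strain on the arrays is not stated, CantonS being the wild type among the lines that the study lists, and no transgene is named for the array flies. Each replicate number stands for 1 slide, and every slide carried all 4 groups.

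All 10 receptors were well above background on all 8 antennal arrays, with signals between 156 and 1703 intensity units and no saturated spot. Levels below are log2 signals with the 75th percentile of the array as reference, so that a level of 0 is as bright as that percentile and a difference of 1 is a factor of 2. Antennal arrays labelled starved had a lower share of spots well above background (65.4% to 67.3%) than those labelled fed (67.7% to 70.7%, exact permutation test, two-sided, p = 0.0286, the smallest that 4 against 4 arrays allow). Pearson's r between arrays of 1 group was 0.978 to 0.997 over the probes well above background. RNA of 14 brain peptide genes summed to 0.725 to 1.10 times the 75th percentile in antennae labelled starved and to 0.699 to 3.25 in those labelled fed, and on replicates 1 and 2 labelled fed all 14 were detected. Of 11 genes of a list of feeding-state genes that were tested in antennae, 1 was called higher and 7 lower in antennae labelled starved, the 7 including Pepck (-2.97 on the log2 scale, adjusted p = 0.000602 by limma), an enzyme of gluconeogenesis known to be raised by food deprivation, and Thor (-0.81, adjusted p = 0.00766), a translation inhibitor known for the same. Among all genes tested, 12.0% were called higher and 21.4% lower. With each array centred on its median the counts of the list were 2 and 5, beside 36.8% and 9.8% of all genes. A gene counts as called if any of its probes was. Of the 7, InR (-0.0084, adjusted p = 0.945 by limma), Lsd-2 (-0.23, 0.0612) and bmm (0.088, 0.627) did not pass on their brightest probes. The gene called higher was Srg1 (3.21, adjusted p = 0.000547). Pepck and Thor were picked from this list after their values were seen. The 7 called lower also include FASN1, a fatty acid synthase (-0.31, adjusted p = 0.0131 by limma). Its call was lost with median centring (-0.099, adjusted p = 0.390). In brain labelled starved, Pepck (-3.14, adjusted p = 0.000959) and Thor (-0.73, 0.0260) were lower as well. AstA, which encodes an allatostatin peptide, changed by -1.45 in antennae and did not pass the test (SE 0.49, adjusted p = 0.0564). For that gene the antennal direction is opposite to the one that the study gives. AstA is 1 of the 14 brain peptide genes above, and the part of their unequal level in its antennal change was not tested. In brain labelled starved AstA was higher (0.37, adjusted p = 0.0237 by limma). CCHa1, which encodes a CCHamide peptide, was lower in brain labelled starved (-0.28, adjusted p = 0.0300 by limma). The study gives CCHamide as upregulated in brain. The feeding labels of the arrays may be exchanged, which was not tested. All directions here are those of the labels, and each difference between starved and fed would change its sign if they were exchanged.

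The first comparison asked whether the receptors of the small basiconic sensilla differ in level between antennae labelled starved and antennae labelled fed. Of the 10 receptors, 7 were higher in antennae labelled starved (Or82a, Or67b, Or98a, Or49b, Or9a, Or47a and Or67a) and 0 were lower, by limma with Benjamini-Hochberg adjustment over all 20575 probes tested. At an unadjusted p under 0.05 and by the methods' t-test the counts were also 7 and 0. Among all 15082 genes tested, 12.0% were called higher and 21.4% lower. With the slide as a block, 5 receptors were called higher, beside 10.8% of all genes, and the calls of Or9a and Or67a were lost. With no filter on dim probes 5 were called higher too, beside 4.87% of all genes, and those of Or47a (adjusted p = 0.0520) and Or67a (0.0846) were lost. Of the 12 probes of the 10 receptors, 9 had every array labelled starved above every array labelled fed, beside 12.5% of all probes tested. These 9 are the probes of the 7 genes called, and on the probes of Or56a, Or43b and Or7a the groups overlapped. The separation and the calls come from the same arrays, so that it adds no support to them. The differences ran from 1.16-fold for Or67a to 1.71-fold for Or82a. Or56a, Or43b and Or7a did not pass the test. In whole tissue, fewer neurons of a type and less RNA per neuron cannot be told apart.

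**Figure D1:**
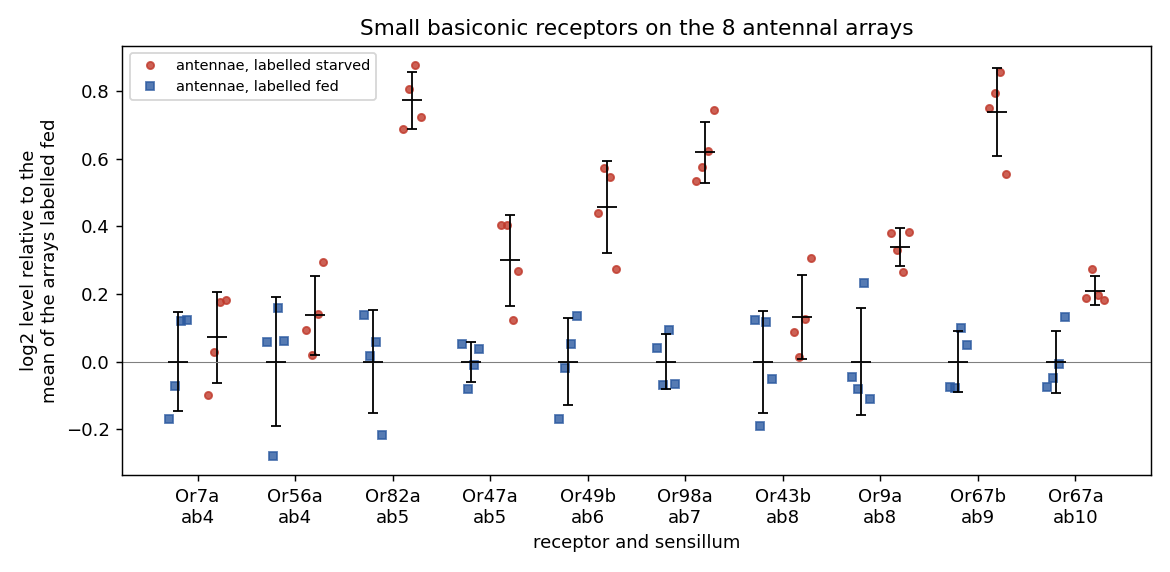
Log2 level of the brightest probe of each receptor on the 8 antennal arrays, relative to the mean of the 4 arrays labelled fed (0), with receptors ordered by sensillum. Points are single arrays, and bars show mean and SD of 4 arrays. The 2 groups are separate for 7 receptors and overlap for Or7a, Or56a and Or43b.

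Sensillum ab4 houses the neuron of Or7a, a receptor for green leaf aldehydes and benzaldehyde, beside the neuron of Or56a, a receptor tuned to geosmin, the smell of harmful microbes. The Or7a probe (CG10759) read 0.55, 0.68, 0.83 and 0.83 on replicates 1 to 4 labelled starved and 0.48, 0.58, 0.77 and 0.77 on those labelled fed. Its groups overlapped almost fully, and the difference was 0.072 (SE 0.097, adjusted p = 0.598 by limma). Within each of the 4 slides, however, Or7a was higher on the array labelled starved, by 0.056 to 0.10. Or56a (CG12501) read 0.27, 0.19, 0.31 and 0.47 on the arrays labelled starved and 0.23, -0.11, 0.33 and 0.23 on those labelled fed, a difference of 0.14 (SE 0.11, adjusted p = 0.353). It was higher on 3 of 4 slides. Neither Or7a nor Or56a thus differed beyond the spread between arrays.

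In ab5, Or82a and Or47a were both higher on the arrays labelled starved, and to unequal degrees. Or82a (CG31519), a receptor known for its narrow response to geranyl acetate, read -0.46, -0.34, -0.27 and -0.42 on the arrays labelled starved and -1.01, -1.13, -1.09 and -1.36 on those labelled fed. The lowest array labelled starved stood 0.55 above the fed array of its slide, and the mean difference was 0.77 (SE 0.089, 1.71-fold, adjusted p = 0.00128). Or47a (CG13225), a receptor for fruit esters such as pentyl acetate, read 1.15, 1.16, 0.88 and 1.02 on the arrays labelled starved and 0.80, 0.67, 0.74 and 0.79 on those labelled fed. Its lowest starved array lay just above its highest fed array, and the difference was 0.30 (SE 0.079, 1.23-fold, adjusted p = 0.0245). The call of Or47a was lost without replicate 1 or 2 labelled starved (adjusted p = 0.0562 and 0.0689) and without replicate 2 or 3 labelled fed (0.0627 and 0.0591).

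Or49b, the receptor of ab6 that is known for methylphenols, was measured by 2 probes (CG17584). Its brighter probe read -0.16, -0.031, -0.055 and -0.33 on the arrays labelled starved and -0.77, -0.62, -0.55 and -0.47 on those labelled fed, a difference of 0.46 (SE 0.093, 1.37-fold, adjusted p = 0.00953). The dimmer probe read -0.75, -0.86, -0.74 and -0.80 against -1.16, -1.27, -1.06 and -1.03, a difference of 0.34 (SE 0.071, adjusted p = 0.0100). On both probes the groups were separate and all 4 slides ran the same way.

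Or98a of ab7 is a receptor for ethyl benzoate and related esters. The Or98a probe (CG5540) read -1.49, -1.45, -1.40 and -1.28 on the arrays labelled starved and -1.98, -2.09, -1.93 and -2.09 on those labelled fed. Both groups were tight, with SDs of 0.090 and 0.082 (n = 4), and stood 0.62 apart (SE 0.072, 1.54-fold, adjusted p = 0.00131).

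Sensillum ab8 houses Or43b, a receptor for fruit esters such as ethyl butyrate, and Or9a, a receptor for acetoin and related compounds of fermentation. Or43b (CG17853) read -0.34, -0.42, -0.30 and -0.13 on the arrays labelled starved and -0.31, -0.62, -0.31 and -0.48 on those labelled fed. The groups overlapped, the slides disagreed (3 of 4 higher), and the difference was 0.13 (SE 0.096, adjusted p = 0.318). Or9a (CG15302) read -1.01, -1.06, -1.12 and -1.01 against -1.43, -1.47, -1.15 and -1.50, with replicate 3 labelled fed close to the starved arrays. The difference of Or9a was 0.34 (SE 0.086, 1.27-fold, adjusted p = 0.0214), and its call was lost without replicate 2 labelled starved (adjusted p = 0.0514) and without replicate 2 or 4 labelled fed (0.0553 and 0.0550). With the slide as a block Or9a was not called either (adjusted p = 0.0555).

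Or67b of ab9, a receptor that responds to acetophenone, was measured by 2 probes (CG14176). On its brighter probe the arrays labelled starved read 0.80, 0.84, 0.91 and 0.60 and those labelled fed -0.026, -0.028, 0.15 and 0.098. These groups stood far apart relative to their SDs of 0.13 and 0.090 (n = 4), with a difference of 0.74 (SE 0.083, 1.67-fold, adjusted p = 0.00125). The dimmer probe gave -0.17, -0.16, -0.30 and -0.37 against -0.79, -0.91, -0.91 and -0.74, a difference of 0.59 (SE 0.076, adjusted p = 0.00192).

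Or67a of ab10 is a broadly tuned receptor for aromatic compounds and esters. It read 0.96, 1.05, 0.97 and 0.96 on the arrays labelled starved and 0.70, 0.73, 0.77 and 0.91 on those labelled fed (CG12526). The starved arrays were nearly identical, the highest fed array came within 0.050 of the starved array of its slide, and the difference of 0.21 (SE 0.066, 1.16-fold) was close to the threshold (adjusted p = 0.0432). Leaving out replicate 4 labelled fed kept the call of Or67a, and leaving out any 1 of the other 7 arrays ended it (adjusted p up to 0.114, without replicate 2 labelled starved). With the slide as a block Or67a was not called (adjusted p = 0.0801). Or82a, Or98a, Or49b and Or67b kept their calls whichever array was left out, with changes of 0.70 to 0.82, 0.58 to 0.65, 0.40 to 0.52 and 0.70 to 0.80.

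The count of 7 receptors fell to 4 without replicate 2 labelled starved, beside 7.07% of all genes, or without replicate 2 labelled fed, beside 8.52%. It was at most 6 with any 1 array left out, where 7.07% to 11.2% of all genes were called higher. With both arrays on which all 14 brain peptide genes were detected left out (replicates 1 and 2 labelled fed), 3 receptors remained called, namely Or82a (0.85, adjusted p = 0.0125), Or67b (0.66, 0.0166) and Or98a (0.61, 0.0166), while Or7a changed to -0.049 (0.754). Under that setting 5.67% of all genes were called higher. In 1 fit over all 16 arrays, where the spread also comes from brain arrays on which most of these probes were below background, 3 receptors were called higher, beside 10.5% of all genes.

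The level of a receptor in antennae also depends on what the arrays are scaled to. Centring each array on its median raised the median change of all probes from -0.038 to 0.17, and 9 of the 10 receptors were then called higher, beside 36.8% of all genes. The exception was Or7a with 0.28 (adjusted p = 0.0858). Relative to Orco, which itself did not pass the test (0.12, SE 0.075, adjusted p = 0.244) but was called higher with median centring (0.33), 4 receptors were called higher, namely Or82a, Or67b, Or98a and Or49b, beside 3.24% of all genes. Relative to the mean of the 33 other odorant receptor genes tested (Orco among them), a scaling chosen after the data were seen, Or82a (0.43, adjusted p = 0.00383), Or67b (0.40, 0.00278) and Or98a (0.28, 0.00671) were higher and Or7a was lower (-0.27, 0.0215), where 1.23% of all genes were called higher and 69.2% lower. The changes of Or56a, Or43b, Or67a, Or47a and Or9a were then -0.20, -0.21, -0.13, -0.041 and -0.0011, none past the threshold. Or82a, Or67b and Or98a were thus called higher under all 4 scalings shown, and the sign of Or7a turned with the scaling. Under the last scaling, 12 of the 32 other receptors tested, Orco left out, were called higher too and 6 lower.

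**Figure D2:**
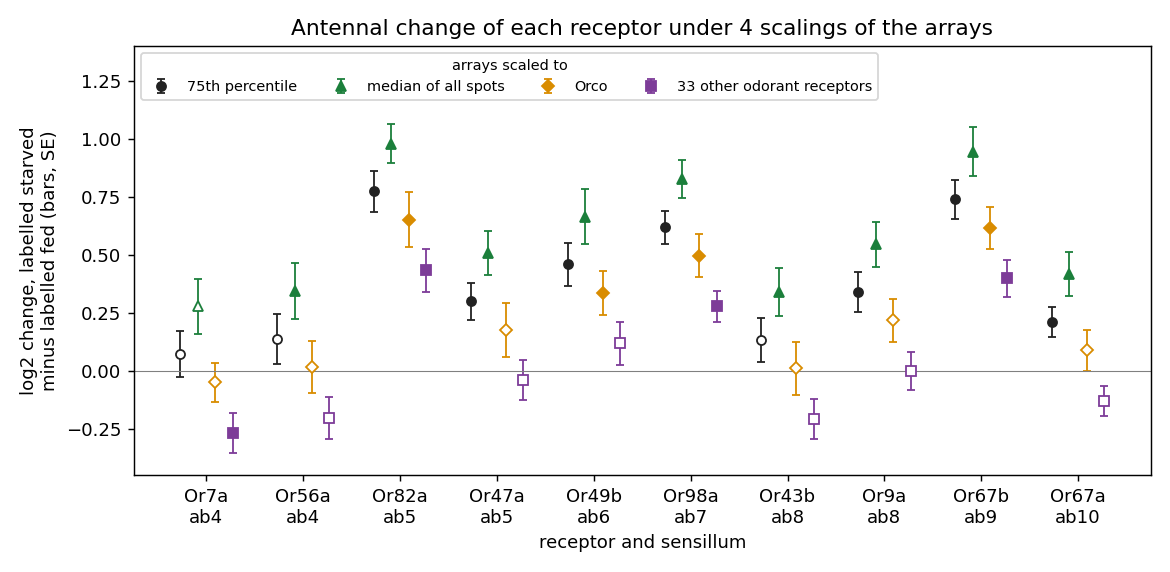
Log2 change of each receptor in antennae (labelled starved minus labelled fed, bars show SE) with the arrays scaled to the 75th percentile, to the median of all spots, to Orco and to 33 other odorant receptor genes (Orco included). Filled symbols passed the adjusted threshold of 0.05. Or82a, Or67b and Or98a are filled and above 0 under all 4 scalings, while Or7a runs from 0.28 to -0.27.

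The other odorant receptors served as a comparison for the change. Of 32 tested in antennae, Orco left out, 23 were higher in antennae labelled starved (71.9%) and 2 were lower, and their median change was 0.39, beside 0.32 for the 10 small basiconic receptors and -0.021 for all genes tested. Of the large basiconic receptors (ab1 to ab3, Gr21a and Gr63a included), 6 of 10 were higher with a median of 0.30, and of the trichoid and intermediate receptors, which include pheromone receptors such as Or67d and Or47b, 10 of 11 were higher with a median of 0.62. Maxillary palp receptors, which are known from another organ, had 2 of 5 higher and 1 lower. The 2 were Or33c (0.86) and Or46a (0.32). Or46a averaged -0.45 in antennae labelled starved and -0.77 in those labelled fed, within the range of the 10 small basiconic receptors. The lower one was Or85e (-1.01), also 1 of the 2 lower among the 32. Or85e passed the filter through the fed group alone, since only 1 of the 4 starved extracts gave a reading clear of background. Its call is no result. Relative to Orco, 14 of these 32 receptors were higher and 2 lower, and with median centring 26 and 2. Relative to the mean of the other odorant receptors, which holds these 32, 12 were higher and 6 lower. Of the 11 trichoid and intermediate receptors 7 were then higher and 0 lower. The classes were not tested against each other.

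**Figure D3:**
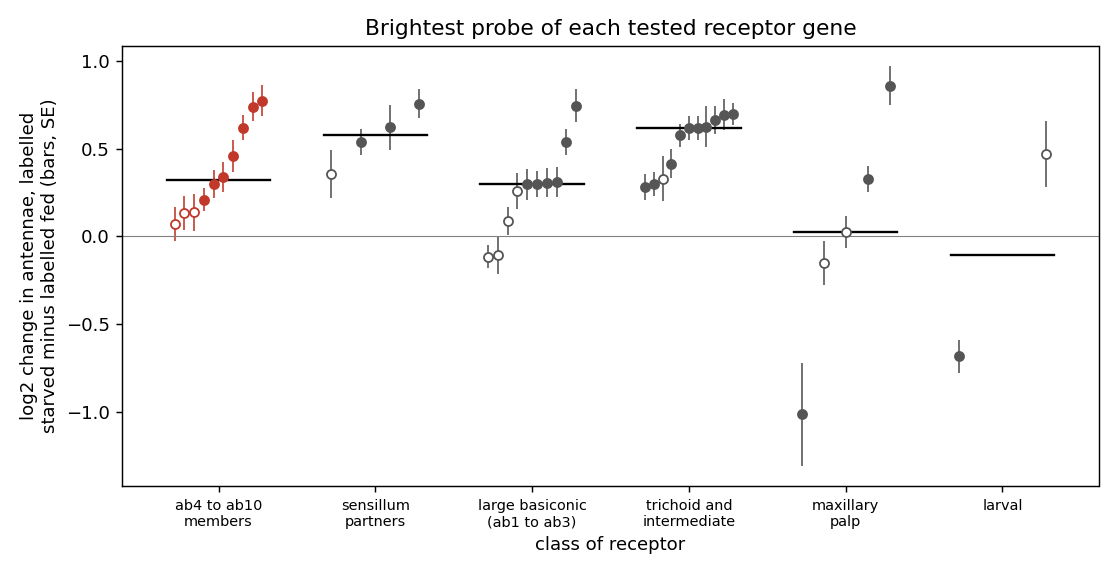
Log2 change in antennae (labelled starved minus labelled fed, bars show SE) of the brightest probe of each tested receptor gene, by class, with the median of each class as a line. Filled points passed the adjusted threshold of 0.05. The 10 small basiconic receptors run from 0.072 to 0.77 around a median of 0.32, and the trichoid and intermediate receptors have a median of 0.62.

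Partners of the members in the same sensilla were Or33a (expressed with Or56a in ab4), Or33b (with Or47a in ab5), Or67c (ab7, a receptor for ethyl lactate), Or69a (ab9) and Or49a and Or85f (ab10, receptors for odours of parasitic wasps). Or33a was higher in antennae labelled starved by 0.54 (SE 0.076, adjusted p = 0.00258), Or67c by 0.76 (SE 0.084, adjusted p = 0.00121) and Or69a by 0.62 (SE 0.13, adjusted p = 0.00984). The change of Or85f was 0.36 (SE 0.14, adjusted p = 0.0818). Relative to the other odorant receptors, Or33a (0.20, adjusted p = 0.0252 by limma) and Or67c (0.41, 0.00323) were still called higher. Or69a (0.28, 0.0561) and Or85f (0.015, 0.918) were not. Or33b was not well above background on any antennal array and Or49a on 1 of 8, and neither was tested.

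Differences between receptors of 1 sensillum were taken within each array, where the scaling of the array drops out. Of 9 pairs planned, 7 could be tested, and none passed after Benjamini-Hochberg adjustment over the 7 exact permutation tests (two-sided). The groups were separate in 2 of them, each with the smallest p that 4 against 4 arrays allow (exact p = 0.0286, adjusted p = 0.1). In ab5, the difference of Or82a minus Or47a was -1.61, -1.50, -1.15 and -1.44 on the arrays labelled starved and -1.81, -1.80, -1.83 and -2.15 on those labelled fed, so that it was 0.47 higher in antennae labelled starved. In ab4, Or7a minus Or33a was 2.75, 2.85, 2.81 and 2.91 against 3.18, 3.32, 3.30 and 3.38, a change of -0.46. Or56a and Or33a are expressed in the same neuron, and their difference, added after the data were seen, changed by -0.40 (exact p = 0.0286, not adjusted).

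The other pairs overlapped between the groups. Or7a minus Or56a (ab4) changed by -0.065 (exact p = 0.571, adjusted p = 0.571), and Or43b minus Or9a (ab8) by -0.21 (exact p = 0.114, adjusted p = 0.25). For Or98a minus Or67c (ab7) the change was -0.14 (exact p = 0.143, adjusted p = 0.25), for Or67b minus Or69a (ab9) 0.12 (exact p = 0.371, adjusted p = 0.519) and for Or67a minus Or85f (ab10) -0.15 (exact p = 0.457, adjusted p = 0.533).

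**Figure D4:**
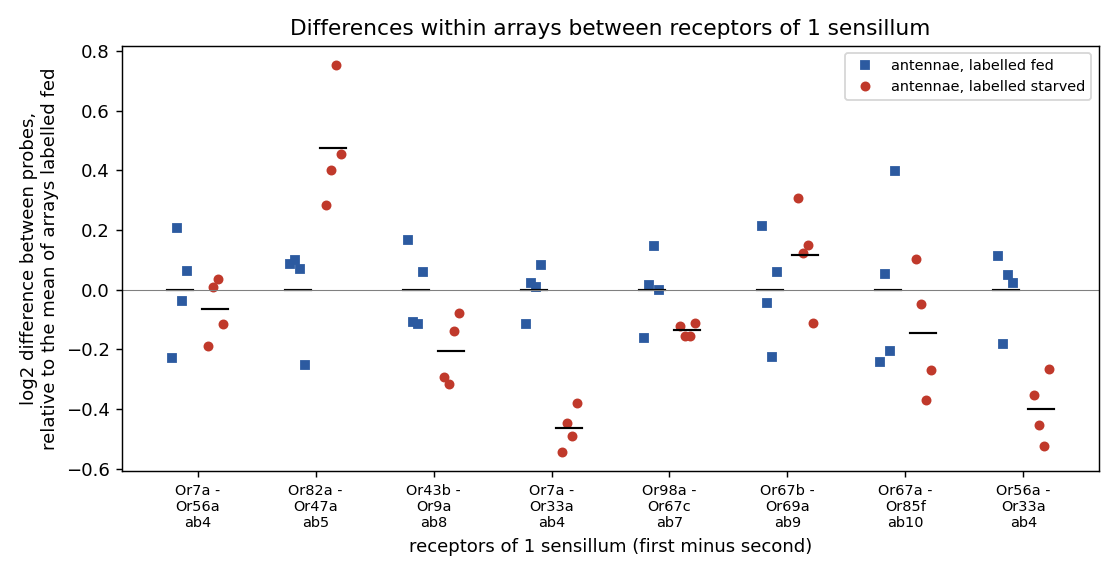
Difference in log2 level between 2 receptors of 1 sensillum on each of the 8 antennal arrays, relative to the mean of the arrays labelled fed, with group means as lines. The groups are separate for Or82a minus Or47a (mean 0.47 higher), Or7a minus Or33a (0.46 lower) and Or56a minus Or33a (0.40 lower).

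Apart from the difference between the groups, the 10 receptors did not vary as 1 block. The correlations of their deviations from the group means over the 8 antennal arrays had a median of 0.072 and ran from -0.68 to 0.91, with 26 of 45 pairs above 0. All points come from the same 8 arrays. Duplicate spots of a member's probe differed by a median of 0.081 on antennal arrays and by at most 0.37. Outside the odorant receptor family, the genes whose levels followed the mean of the receptors most closely over these arrays, of 15039 ranked, were Prosalpha7 (r = 0.992), a proteasome subunit, Gr93a (r = 0.990), a gustatory receptor, and the transcript TC198234 (r = 0.987). As many as 587 genes had an r over 0.9, and the difference between the groups is part of each r.

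Transcription factors known to be needed for the choice or upkeep of a receptor in olfactory neurons gave no uniform direction. Of 10 tested in antennae, 1 was higher (Fer1, 0.30, adjusted p = 0.0263) and 6 were lower, beside 12.0% and 21.4% of all genes. A gene was counted if any of its probes was called. The median change, taken over brightest probes, was -0.22. Xbp1, a factor of the unfolded protein response, was among the 6 (-0.63, adjusted p = 0.00307). Of the 6, onecut (0.14, adjusted p = 0.212 by limma), acj6 (-0.26, 0.0521) and Eip93F (-0.18, 0.0548) did not pass on their brightest probes. The split turned with the scaling, since with median centring 4 were higher and 3 lower (Fer1 0.50, Xbp1 -0.42). Of all genes, 36.8% were then called higher and 9.8% lower. Of 6 general neuronal genes 4 were lower and 0 higher, with a median of 0.018, and with median centring 3 were lower and 2 higher. Of the 4, Syt1 (0.34, adjusted p = 0.130 by limma) and para (-0.077, 0.491) did not pass on their brightest probes, which the median uses. Of 7 antennal support cell genes 1 was higher and 1 lower, their summed level being 1040 to 1334 times the 75th percentile in antennae labelled starved and 893 to 1212 in those labelled fed, and with median centring 4 were higher and 0 lower. Of 7 brain peptide genes tested, 4 were lower and 0 higher in antennae labelled starved (4 and 1 with median centring). The part of these differences in the change of the receptors was not tested.

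In brain, 2 of the 10 receptors could be tested, and 0 were called in either direction, where 12.4% of all genes were called higher and 25.7% lower. At an unadjusted p under 0.05, by limma and by the methods' t-test, 0 were higher and 1 was lower, namely Or49b by its dimmer probe. Or43b read -5.77, -5.61, -5.42 and -5.18 on the brain arrays labelled starved and -5.05, -5.45, -5.49 and -4.21 on those labelled fed, a change of -0.44 (SE 0.28, adjusted p = 0.254). The brighter Or49b probe read -4.36, -4.74, -3.91 and -4.09 against -4.64, -4.48, -4.20 and -3.89, a change of 0.025 (SE 0.22, adjusted p = 0.937). The dimmer Or49b probe changed by -0.42 (SE 0.15, adjusted p = 0.0642), and it was called lower without replicate 2 labelled fed (-0.53, adjusted p = 0.0349). With normexp background correction it was called lower too (-0.22, adjusted p = 0.0289), as was Or43b (-0.26, 0.0369). Without replicate 2 labelled fed 2 receptors were called lower in brain, beside 19.3% of all genes, and without replicate 4 labelled fed 1 was, beside 31.7%. Apart from the dimmer Or49b probe, these calls were not of Or43b or Or49b. Or7a could be tested only in the first of these settings and Or67a only in the second, through the arrays labelled fed. Their calls are therefore no result. The signals of Or43b and Or49b lay between 16.2 and 65.1 intensity units, near the lower end of what the arrays measured. Duplicate spots differed on the 8 brain arrays by a median of 0.15 and at most 0.71 on the log2 scale for Or43b, and by 0.090 and at most 0.35 for the dimmer Or49b probe.

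The tissues were compared to check where the receptors were measured. Or49b and Or43b, well above background on all 8 brain arrays, were the 2 receptors that could be tested, and both were higher in antennae in flies labelled fed (limma, adjusted p = 1.78e-07 and 9.63e-07) and in flies labelled starved (8.70e-08 and 5.10e-09), where 33.3% and 36.8% of all genes were called higher. They were 13.0-fold and 24.5-fold higher in antennae labelled fed than in brain labelled fed, and 17.5-fold and 36.6-fold in flies labelled starved. The other 8 entered this comparison through antennae alone, where they are high, so that their call is no result. For them a lower bound is given, with each brain array taken at its lowest spot well above background or at the receptor's own value if that was higher. By that bound Or56a was at least 114-fold higher in antennae labelled fed and at least 121-fold in those labelled starved, and Or98a at least 24.9-fold and 36.9-fold. No brain array was well above background for these. The bounds were at least 45.6-fold in flies labelled fed and 75.3-fold in flies labelled starved for Or82a, at least 101-fold and 134-fold for the brighter Or67b probe, and at least 165-fold and 202-fold for Or47a. For Or7a they were at least 140-fold and 161-fold, for Or9a at least 38.6-fold and 47.2-fold, and for Or67a at least 113-fold and 183-fold. Brain arrays labelled fed well above background were 3 for Or7a, 2 for Or9a, 3 for Or67a and 1 for Or47a, and those labelled starved were 2 for Or67a and 1 each for Or82a, Or47a and the brighter Or67b probe. Orco was higher in antennae by 7.25 on the log2 scale in flies labelled fed, all 7 antennal support cell genes were higher there, and all 14 brain peptide genes were lower, so that the tissue labels were borne out by their markers.

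**Figure D5:**
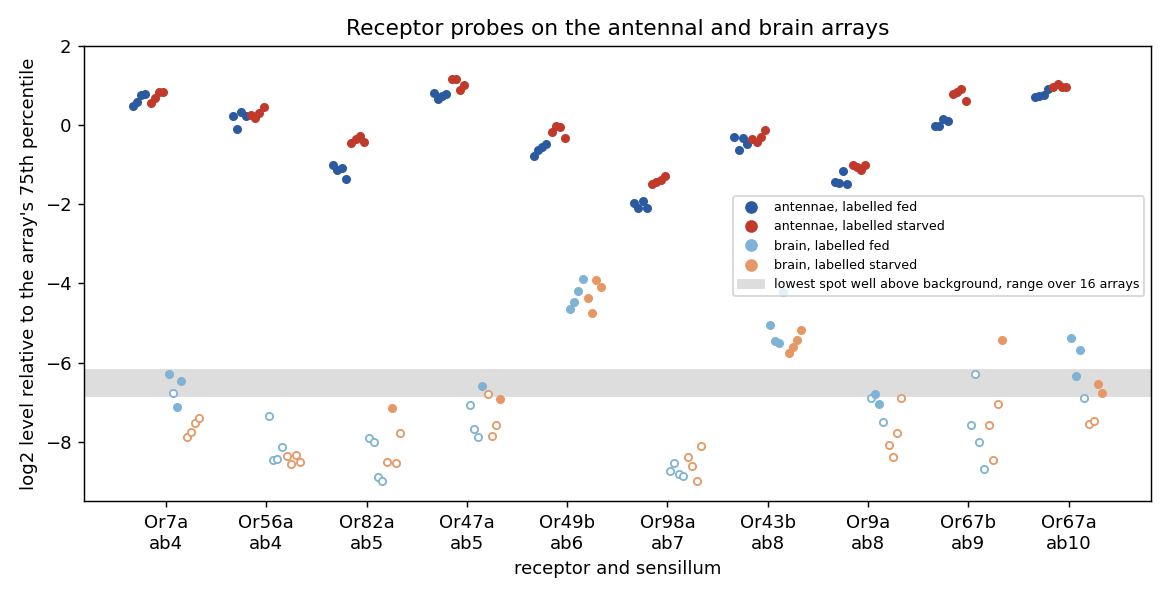
Log2 level of the brightest probe of each receptor on all 16 arrays, relative to the 75th percentile of each array. Filled points were well above background on that array, open points were not, and the grey band spans the lowest spot well above background on each array (-6.86 to -6.19). All antennal points lie above all brain points of the same receptor, and for Or49b and Or43b alone all brain points are filled.

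A difference between the tissues in the feeding contrast was tested as the interaction over all 16 arrays. Or43b and Or49b were the 2 receptors measured in both tissues, and 1 of them, Or49b, was called by its dimmer probe. Of all genes, 1.66% were called with the antennal change above the brain change and 1.99% with it below. For Or49b the dimmer probe changed by 0.34 in antennae and by -0.42 in brain, a difference of 0.77 (SE 0.17, adjusted p = 0.0285), while the brighter probe differed by 0.43 (SE 0.25, adjusted p = 0.417). Or43b differed by 0.58 (SE 0.32, adjusted p = 0.396). The other 8 receptors were not well above background on every brain array and passed the filter through antennae, so that their brain change was not measured. The call that Or7a also had (1.05, SE 0.22, adjusted p = 0.0210) is therefore no result. With Or7a, 2 of the 10 receptors were called, a count that was 0 without replicate 2 of antennae labelled fed and 4 without replicate 4 of brain labelled fed. It was 1 without replicate 1 of any of the 4 groups, replicate 4 of antennae labelled starved or replicate 2 of brain labelled starved. Whichever array was left out, neither Or43b nor the brighter Or49b probe was called. Apart from the dimmer Or49b probe, the calls in these counts were of receptors whose brain change was not measured, and are no result. Without replicate 4 of brain labelled fed, 3.04% of all genes were called above and 2.17% below.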

How the data were processed

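The authors deposited, for each array, the signal intensity of every spot from Agilent Feature Extraction 9.1 (named in the submitters' processing notes and the methods), background subtracted and not scaled between arrays. Log2 values that the authors deposited as 1 table differ from the log2 signal by 1 constant per array and served as an alternative. Here 1417 control spots of 45020 and 49 outlier readings were left out. Each log2 signal was set against the 75th percentile of the array, and spots of 1 probe were averaged. A probe was tested if, in 1 or more groups, each of the 4 arrays showed it well above background (at least 0.5 of its spots). Groups come from the sample labels, and slides from the array files. Limma 3.58.1 in R 4.3.3 (lmFit, eBayes) was used, two-sided, Benjamini-Hochberg at 0.05 over all probes. A gene was called if any of its probes was. The fit was also run on simulated data with independent noise for each probe, which hold no slide effect. Figures used Python 3.11.15 and matplotlib 3.10.9.

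All members were named, with the brightest probe first, their sensillum partners, Orco, and the 3 genes most correlated with them. Members and lists were chosen with earlier results of these data known. Pepck, Thor, FASN1, InR, Lsd-2, bmm, Srg1, AstA, CCHa1, Or85e, Or33c, Or46a, Fer1, Xbp1, onecut, acj6, Eip93F, Syt1 and para were named after their values were seen. Extracts came from different flies according to the series description. The number of arrays limits the precision. Alternatives were a replicate block, the methods' t-test, filters on dim probes, 2 background corrections, 4 other scalings, the deposited table, 1 fit over all arrays and leaving out each array. Scaling to the other odorant receptors, leaving out 2 arrays together and 2 pairs within a neuron were added after the data were seen. No sequences or coordinates are given.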

Additional observations from a re-analysis of the deposited data

Results flagged for a closer look

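Over 46 groups of 4 arrays searched, 2 held an array far from the others by Dixon's criterion, which flags about 1 in 20 groups by chance. For Or67a in antennae labelled starved, replicate 2 (1.05) lay above the others (0.96 to 0.97), its gap being 0.841 of the group's range. Without it the change was 0.19 (adjusted p = 0.114 by limma). For Or82a minus Or47a in antennae labelled fed, replicate 4 (-2.15) lay below the others (-1.83 to -1.80), its gap being 0.921 of the range, and with each antennal array left out in turn the change of this difference stayed between 0.38 and 0.54. The dimmer Or49b probe was picked out because its feeding difference was 0.77 higher in antennae than in brain by the interaction test (limma, adjusted p = 0.0285). The brighter Or49b probe gave 0.43 (0.417), so that this difference was not seen on both probes.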

How the results depend on the processing

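Of the 10 receptors, 7 were called higher in antennae labelled starved, a count that was 4 relative to Orco, 3 relative to the other odorant receptors (with 1 lower), 3 without replicates 1 and 2 labelled fed, 3 in 1 fit over all 16 arrays, 5 with no filter on dim probes, and 4 to 6 with each array left out. With each array left out, 7.07% to 11.2% of all genes were called higher, beside 12.0% with all arrays. Signs turned for Or7a relative to Orco (-0.050), without both arrays (-0.049) and relative to the other receptors (-0.27), and under the last scaling also for Or56a (-0.20), Or47a (-0.041), Or43b (-0.21), Or9a (-0.0011) and Or67a (-0.13), as the scaling's construction implies. In brain the count called lower was 0 and became 1 with no filter, 2 with normexp, 1 with no background correction and 1 in the fit over 16 arrays. The shares of all genes called lower were then 15.3%, 26.0%, 26.4% and 29.2%. With each array left out the count was 0 to 2, calls of receptors other than Or43b and Or49b included. The brighter Or49b probe (0.025) turned to -0.061 with normexp and -0.046 with no background correction, and ran from -0.097 to 0.18 with each array left out. With probes well above background on all arrays compared, 2 receptors, in place of 10, could be tested between tissues and both were higher in antennae. The count of interactions, 2 with Or7a, whose brain change was not measured, was 1 with that filter, 7 with normexp, 6 with no background correction, 1 with quantile scaling, 1 with median centring and 0 to 4 with each array left out. Of all genes, 2.92% were called above and 1.93% below with normexp, and 2.77% and 1.96% with no background correction. Or43b and the brighter Or49b probe were not called under any setting. Apart from the dimmer Or49b probe, these calls were of receptors not well above background on every brain array, and are no result. Except where a setting tested fewer probes or arrays, the cause of a changed count was not tested. The replicate number, which marks a shared slide, gave as a block 5 receptors higher in antennae (Or9a lost, adjusted p = 0.0555, Or67a lost, 0.0801) and changed no other call of a receptor. Deviations of same-numbered arrays from their group means correlated at -0.114 to 0.108 in antennae and -0.309 to 0.318 in brain. For the sensillum pairs the block allows no p below 0.125. Over all genes, 1813 were higher and 3233 lower in antennae (35.9% of the calls higher), 5551 and 1478 with median centring (79.0%), 2646 and 1782 with quantile scaling (59.8%), 488 and 4102 relative to Orco (10.6%) and 185 and 10444 relative to the other receptors (1.74%). In brain 1994 and 4124 (32.6%) became 2847 and 2275 with median centring (55.6%) and 2188 and 2699 with quantile scaling (44.8%).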
